A study of Mus musculus with 48 samples.

Results

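The 6 genes described here were Arntl, Clock, Npas2, Cry1, Cry2 and Nfil3, core components and a close partner of the circadian clock, taken from the 55335 gene identifiers of the age and NudC count tables. They were chosen as clock genes of the Arntl phase with earlier results of these data known, that is, they were selected on their measured input levels in young and aged livers, so the contrast of ages is given for them as a description with no test. The label did not hold for every gene: 5 of the 6 were lower in young than in aged input, whereas Cry2 was higher in young input.

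RNA was taken from livers of C57BL/6 mice and every library was made from polyA-selected RNA. In ONE-seq, the enzyme ADPRC replaces the nicotinamide of an NAD cap with the biotinylated alcohol HEEB, streptavidin beads hold the labelled RNA, and the NAD-cap hydrolase NudC releases it, which gives an enrichment library that stands beside an input library of the same preparation. The 3 experiments gave 48 libraries with a label. The age experiment used 4 young (2-month) and 4 aged (18-month) livers, the NudC experiment used 12-month livers released with (NudC+) or without (NudC-) the enzyme, of which 2 input and 2 enrichment libraries per arm are analysed here, and the spike-in experiment used RNA of 18-month livers with an added RNA of which 0%, 1%, 5% or 10% carried the NAD cap, with 3 input and 3 enrichment libraries per mixture. The same 3 replicate numbers recur in every mixture, and which of these libraries share a liver is not given in the labels, so the 12 pairs may stand for as few as 3 animals. The labels likewise do not say whether same-numbered libraries of the NudC arms share a liver, so those arms may not be separate animals. The mice were kept under a light/dark cycle. The hour of dissection is not given in the sources used here, so age and time of day cannot be told apart in what follows.

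Depth was 9149931 to 14953661 counts per library in the age experiment, 7242321 to 8725646 in the NudC experiment and 3694383 to 10277863 in the spike-in experiment. A level is given in counts per 1000000 counts (cpm) after TMM scaling, which sets libraries to a common scale, and 3 counts amounted to 0.189 to 0.357, 0.284 to 0.478 and 0.278 to 1.07 cpm in the 3 experiments. Intervals on counts cover counting error only. In the spike-in experiment the enrichment libraries were uneven: RNA of the mitochondrial genome fell from input to enrichment by 0.07 on the log2 scale in replicate 3 of the 1% mixture and by 0.58 in replicate 1 of the 0% mixture, against falls of 0.82 to 2.59 in the other 10 pairs.

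The clock is a transcriptional loop. ARNTL (BMAL1) pairs with CLOCK or with its paralog NPAS2, and the pairs bind E-box motifs and switch on genes that include their own repressors, the PER and CRY proteins. The nuclear receptors REV-ERB and ROR repress and activate Arntl itself through ROR elements, and NFIL3 (E4BP4) represses genes with D-box motifs that DBP and its relatives activate. In liver, transcripts of Arntl and Npas2 and those of Dbp are known to peak at opposite times of day.

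Because the genes differ in the control elements they are known for, the sequences before their start sites were read from RefSeq on GRCm38.p6, where all 6 genes had an entry. The 250 bases before the first-listed start were searched on both strands for the E-box CACGTG, the D-box TTATGNAA and the core of the ROR element TNGGTCA, which occur in 6.02%, 3.07% and 9.19% of 32851 windows of that length. Shown 5′ to 3′ on the strand of the gene, with matches in capitals, are the 4 genes that held a match. The stretch of Cry1 stops before the first annotated exon, and that of Nfil3 is limited to 30 bases around its match, which lie within the first exon that GENCODE annotates although they precede the RefSeq start.

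Arntl, chr7:113207215-113207464, plus strand: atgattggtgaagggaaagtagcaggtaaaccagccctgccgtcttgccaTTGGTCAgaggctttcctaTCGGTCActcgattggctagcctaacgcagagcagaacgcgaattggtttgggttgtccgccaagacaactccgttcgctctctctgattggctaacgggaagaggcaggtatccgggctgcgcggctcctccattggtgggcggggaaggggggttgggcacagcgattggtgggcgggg
Cry1, chr10:85185065-85185304, minus strand: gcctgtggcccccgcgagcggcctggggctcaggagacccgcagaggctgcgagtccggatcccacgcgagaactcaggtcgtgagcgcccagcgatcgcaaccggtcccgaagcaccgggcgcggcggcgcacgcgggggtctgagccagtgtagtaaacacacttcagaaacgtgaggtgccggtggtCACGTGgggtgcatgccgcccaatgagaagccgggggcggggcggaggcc
Cry2, chr2:92434070-92434319, minus strand: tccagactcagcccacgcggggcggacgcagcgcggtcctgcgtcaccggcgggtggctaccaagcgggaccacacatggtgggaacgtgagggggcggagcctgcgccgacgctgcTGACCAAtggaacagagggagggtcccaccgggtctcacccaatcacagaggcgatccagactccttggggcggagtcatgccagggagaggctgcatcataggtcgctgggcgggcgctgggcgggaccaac
Nfil3, chr13:52981040-52981069, minus strand: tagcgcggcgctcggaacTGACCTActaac

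The Arntl window matched the searched ROR pattern at 2 places, from base -200 to -194 and from base -181 to -175 counted from the start site. The pattern takes any base at N, here T and C, so it is loose. From another listed start of Arntl, TAGGTCA lay from base 31 to 37, past the start and outside the bases searched. Which of these sites REV-ERB and ROR act through was not tested. Cry1 held 1 E-box from base -60 to -55. Cry2 and Nfil3 each held the ROR core on the opposite strand, from base -133 to -127 and from base -12 to -6. The windows of Clock and Npas2 held none of these letters and no window held the D-box, which says nothing about sites elsewhere or about binding.

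Among the activators, Arntl (ENSMUSG00000055116, chr7:113207465-113314126, plus strand) was nearly absent from young input and present in aged input. The 4 young input libraries held 8, 5, 11 and 9 counts, or 0.820, 0.484, 0.958 and 0.818 cpm. The 4 aged ones held 368, 325, 238 and 267 counts, or 23.7, 20.5, 18.3 and 20.1 cpm. No young library reached the lowest aged one, and the ratio of aged to young was 26.8 (95% counting interval 19.0 to 39.2). In such tissue RNA, fewer cells of a type and less RNA per cell cannot be told apart. An antisense gene, Gm45355, overlaps Arntl by 33 exonic bases. The counting options given in the methods set no strand, so reads of both genes cannot be told apart there.

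Npas2 (ENSMUSG00000026077, chr1:39193731-39363236, plus strand), which can take the place of CLOCK in the pair with ARNTL, showed the widest gap of the 6. Its young input libraries held 5, 0, 1 and 1 counts, at or near the limit of 3 counts in a library. The aged ones held 156, 167, 163 and 217 counts, or 10.0, 10.5, 12.6 and 16.4 cpm. The ratio of aged to young was 74.2, with a counting interval of 35.8 to 185 that reflects the 7 young counts in all.

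Clock (ENSMUSG00000029238, chr5:76209868-76304792, minus strand), the partner of ARNTL, differed far less between the ages. Young input held 15.8, 12.5, 12.7 and 16.4 cpm and aged input 26.1, 25.3, 25.9 and 27.1 cpm. The groups did not overlap, and aged input was 1.82 (1.66 to 2.01) times the young level.

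The repressors parted. Cry1 (ENSMUSG00000020038, chr10:85131700-85185064, minus strand), which encodes a cryptochrome that blocks the ARNTL pairs, stood at 6.66, 6.87, 5.22 and 6.63 cpm in young input and at 16.2, 17.9, 19.7 and 15.4 cpm in aged input. Aged input was thus 2.74 (2.39 to 3.14) times the young level, without overlap. Its paralog Cry2 (ENSMUSG00000068742, chr2:92403646-92434043, minus strand) went the other way, with 39.9, 42.5, 25.4 and 25.3 cpm in young and 21.7, 23.8, 17.6 and 20.2 cpm in aged input. The young level was 1.56 times the aged one, the lowest young library lay just above the highest aged one, and the young libraries fell into a higher and a lower pair. When libraries were scaled by their totals, without TMM, the Cry2 groups overlapped. D930015M05Rik, on the other strand, overlaps Cry2 by 295 exonic bases.

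Nfil3 (ENSMUSG00000056749, chr13:52967209-52981073, minus strand), the D-box repressor, was the most even of the 6 among young animals. Young input held 11.2, 12.2, 11.9 and 11.7 cpm and aged input 42.1, 38.6, 46.3 and 44.9 cpm. The groups were far apart and the aged level was 3.63 (3.30 to 4.01) times the young one.

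None of the 6 genes overlapped between the ages, where 29.4% of the 15636 genes tested did not overlap in either direction and 14.8% did not overlap with young lower. Since this contrast chose the genes, nothing is read from that count. Hepatocyte markers (Alb, Apoa1, Ttr and 5 others, 8 of 8 detected) summed to 104500 to 123600 cpm in young and 65070 to 75460 cpm in aged input, with 7 of the 8 called higher in young. Lymphocyte markers (Cd3e, Cd79a and 4 others, 6 of 6 detected) summed to 1.27 to 3.59 cpm in young and 5.09 to 9.22 cpm in aged input. Sums of Kupffer cell, endothelial, stellate cell, cholangiocyte and red blood cell markers overlapped between the ages. Single markers of these were called too, where 12% of all genes were called higher and 12.5% lower in young. Higher and lower were 0 and 1 of 6 Kupffer cell, 1 and 1 of 6 endothelial and 0 and 2 of 6 stellate cell markers. It was 2 and 1 of 5 for cholangiocytes, 1 and 3 of 4 for red blood cells and 0 and 2 of 6 for lymphocytes. The part of any of these in the levels of the clock genes was not tested.

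The 2 other experiments gave levels in further libraries, which were also known when the genes were chosen. Their tables were scaled separately, so levels are set side by side and not tested across tables. In the 12 spike-in inputs, all from 18-month livers, Arntl ranged from 17.4 to 24.1 cpm with a median of 20.8 cpm. In the 4 inputs of the NudC experiment, from 12-month livers, it stood at 1.78 and 1.17 cpm in the NudC- arm and at 1.09 and 1.71 cpm in the NudC+ arm. Every 18-month library of both experiments was therefore above every 2- and 12-month library.

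Npas2 followed the same division, with 8.34 to 15.97 cpm (median 10.6 cpm) in the spike-in inputs and 0.122 to 0.593 cpm, or 1 to 6 counts, in the 12-month inputs. Nfil3 stood at 33.7 to 55.7 cpm (median 44.5 cpm) in the spike-in inputs and at 12.2 to 19.0 cpm in the 12-month inputs. Cry1 stood at 17.8 to 23.8 cpm (median 19.5 cpm) against 2.37 to 4.63 cpm. For these 3 genes too, no 18-month library reached down to a 2- or 12-month one.

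Clock ranged from 18.7 to 26.4 cpm (median 22.3 cpm) in the spike-in inputs and from 13.5 to 20.7 cpm in the 12-month inputs, so those ranges overlapped. Cry2 stood at 16.5 to 22.9 cpm (median 19.7 cpm) in the spike-in inputs and at 37.0 to 45.8 cpm in the 12-month inputs. It was the sole gene of the 6 that was lower in all 18-month libraries than in all others.

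**Figure D1:**
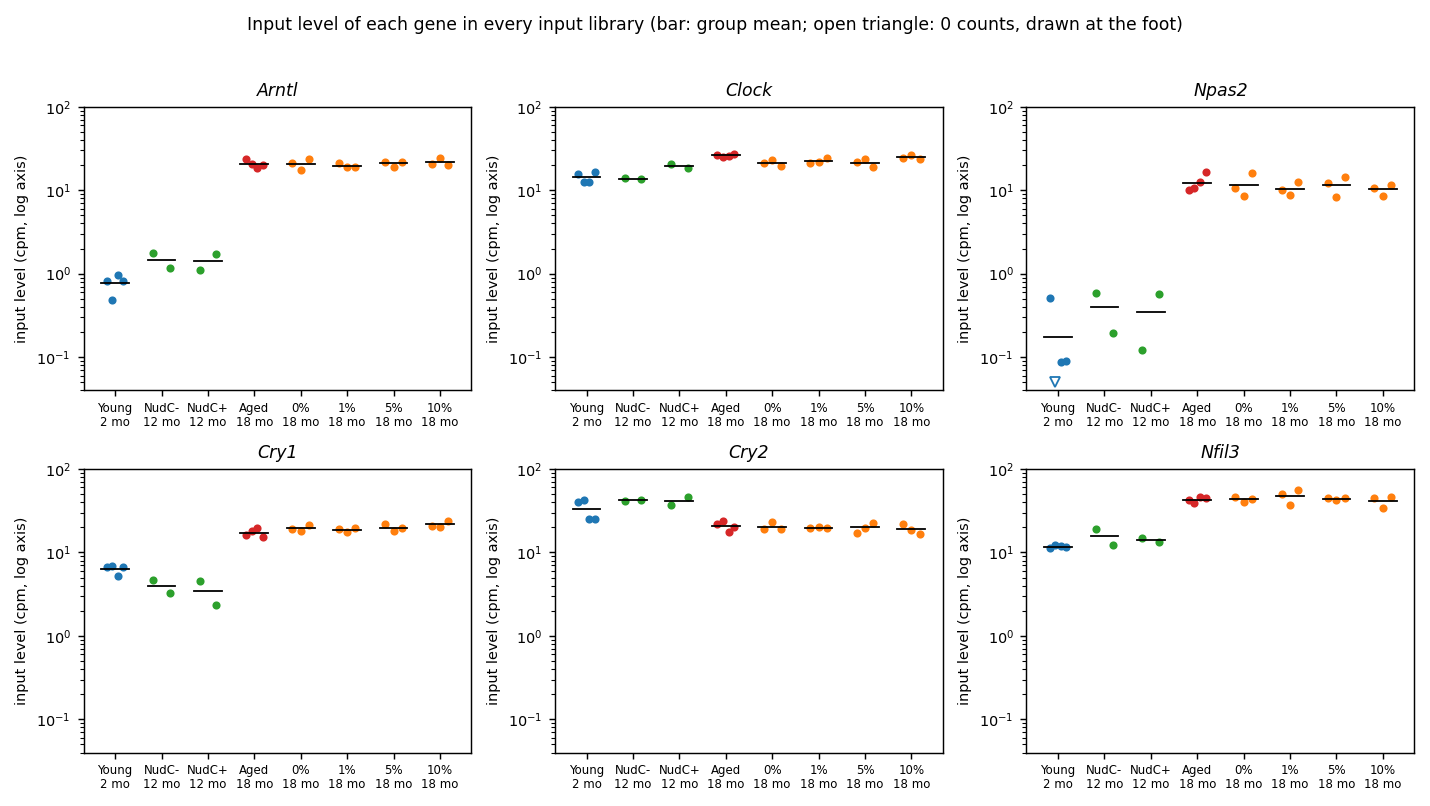
Input level of each gene in cpm on a log axis, 1 point per input library, by group with the age in months (mo), the bars being group means and the open triangle a library with 0 counts. Arntl, Npas2, Cry1 and Nfil3 were high in the aged livers and the 4 spike-in mixtures and low in young and 12-month livers, Clock was higher in aged than in young input but overlapped between 12-month and spike-in inputs, and Cry2 was lower in the 18-month livers.

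The mean levels of Arntl in ascending order were 0.770 cpm in young, 1.40 cpm in NudC+, 1.48 cpm in NudC-, 19.7 cpm in the 1% mixture, 20.7 cpm in aged, 20.8 cpm in the 0%, 21.0 cpm in the 5% and 21.6 cpm in the 10% mixture. The 2 NudC arms overlapped in range, as did all neighbours among the 5 groups of 18-month livers. Young and NudC+ did not overlap, and neither did NudC- and the 1% mixture, the step that separates 12- from 18-month livers.

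Whether the genes differed between input groups that by label differ in the added RNA alone was tested over the 4 mixtures. edgeR's quasi-likelihood F test called 0 of the 6 genes, with unadjusted p between 0.702 for Nfil3 and 0.957 for Cry2, and 0 of them had an unadjusted p under 0.05 there or in DESeq2. Of all 14849 genes tested, 0.68% were called. The highest and lowest mixture means of Arntl were 21.6 and 19.7 cpm, and the SD over all 12 libraries was 1.98 cpm. That of Npas2 was 2.47 cpm around a mean of 10.99 cpm. In all 4 mixtures replicate 3 of Npas2 was the highest and replicate 2 the lowest, and replicate 2 was also the lowest for Nfil3, so libraries of the same number shared this order across mixtures, and the test above treats them as separate. With the replicate number as a block, 0 of the 6 genes were called.

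Between genes, levels can be compared only per length, here as cpm per kilobase of merged exon (rpkm). The merged exons span 13727 bases in Clock, 7523 in Arntl, 6320 in Cry2, 4791 in Npas2, 3340 in Cry1 and 2026 in Nfil3. In young input the order of rpkm levels was Nfil3 at 5.80 ± 0.213 (SD, n = 4), Cry2 at 5.27 ± 1.46, Cry1 at 1.90 ± 0.226, Clock at 1.04 ± 0.148, Arntl at 0.102 ± 0.0268 and Npas2 at 0.0360 ± 0.0481. The ranges of Nfil3 and Cry2 overlapped, and so did those of Arntl and Npas2.

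In aged input the order of rpkm levels was Nfil3 at 21.2 ± 1.68, Cry1 at 5.18 ± 0.577, Cry2 at 3.30 ± 0.411, Arntl at 2.75 ± 0.295, Npas2 at 2.58 ± 0.599 and Clock at 1.90 ± 0.0555 (SD, n = 4). Arntl overlapped with both Cry2 and Npas2, whereas Clock lay below all other ranges. Arntl thus stood below Clock per length in young input and above it in aged input.

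**Figure D2:**
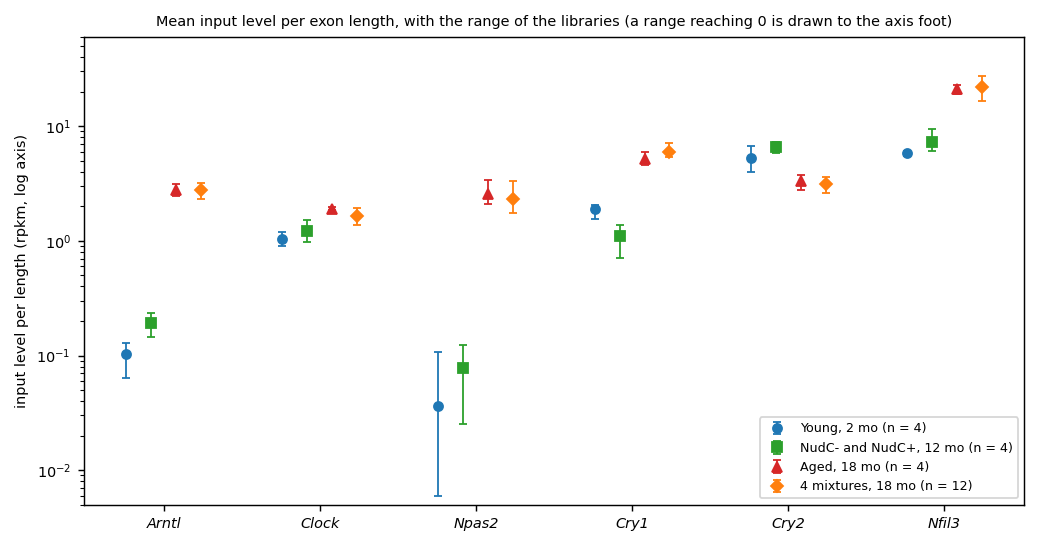
Mean input level per exon length in rpkm on a log axis for the 6 genes, with bars from the lowest to the highest library, for young, 12-month, aged and spike-in inputs. Arntl and Npas2 lay at or below 0.237 rpkm in every young and 12-month library and at or above 1.74 rpkm in every 18-month one, and Nfil3 was the highest of the 6 in the 18-month inputs.

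The genes whose input profile was most like that of Arntl were found by the root mean square distance of log2 cpm, centred within each experiment, over the 24 input libraries and 11766 genes, which are those with a mean of at least 1 cpm in each experiment and the 6 genes themselves whatever their level. The profile of Arntl itself had a root mean square of 1.31 on that scale. Among the nearest 5 genes were Raet1e at 0.37, Tubb2a and Cdkn1a at 0.39 and Cidec at 0.40. Of the chosen genes, Npas2 lay at 0.45, Nfil3 at 0.80, Cry1 at 0.93 and Clock at 1.08, while Cry2 lay at 1.51, farther from Arntl than from its sign-flipped profile at 1.14. Among the 5 genes nearest to the flipped profile were Usp2 at 0.37, Cib3 at 0.41, Enho at 0.43 and Upp2 at 0.45. These distances rest on the gap between young and aged that also chose the genes, so they restate it. Over the 12 spike-in inputs alone the profile of Arntl had a root mean square of 0.13 and 0 of the 5 nearest genes were the same.

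Of these, Cdkn1a, a cell cycle inhibitor, stood at 0.512 to 1.64 cpm in young and 33.0 to 55.8 cpm in aged input. Upp2, a uridine phosphorylase, stood at 514.8 to 624.5 cpm in young and 41.2 to 66.9 cpm in aged input.

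Of 22 other clock genes, a list that holds the PER, REV-ERB, ROR and D-box families with their kinases and ligases, 21 were tested between young and aged input. edgeR called 12 of them higher and 2 lower in young, where 12% and 12.5% of all genes were called, and the median log2 difference was 0.55 against -0.01 over all genes. The list was also chosen with results of this contrast known. The gene with the widest gap was Dbp, the D-box activator that NFIL3 opposes, at 151.6 to 181 cpm in young and 0.772 to 1.89 cpm in aged input. Usp2, Bhlhe41 and Ciart followed, with 45.9 to 65.9, 2.18 to 10.0 and 6.25 to 12.6 cpm in young. The levels in aged input were 1.71 to 2.696, 0.0754 to 0.322 and 0.322 to 1.20 cpm.

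In the 12-month inputs Dbp stood at 205.8 to 271.8 cpm and in the spike-in inputs at 0.596 to 1.58 cpm, the mirror of Arntl in the same livers. Among the clock genes called lower in young was Timeless, with a log2 difference of -0.89. Of the REV-ERB genes, Nr1d1 differed by 1.75 and Nr1d2 by 2.41 on the log2 scale, both called higher in young.

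Of 16 genes of NAD synthesis and use, 15 were tested and 2 were called in each direction, with a median of 0.01. Those with the widest gaps were Nmnat2 with a log2 difference of -1.04, which was not called, Sirt6 with -0.99 and Nmrk1 with 0.90, both called. Of the 4 genes of NAD cap removal, edgeR called 0 between the ages, with 1 at an unadjusted p under 0.05 there and in DESeq2, which also called 0. The 3 widest were Nudt16 with 0.39, Xrn1 with -0.21 and Dxo with 0.14.

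The second question was whether transcripts of the 6 genes passed into the NAD-captured fraction. Enrichment was set against input in each condition with edgeR on all genes, and a gene counted as an NAD-RNA when it was at least 2-fold higher with an adjusted p under 0.05. None of the 6 genes met this in any of the 5 comparisons, where 13% (young), 11.5% (aged), 9.35% (NudC-), 7.67% (NudC+) and 11.4% (spike-in) of all genes did. The calls were 0 higher and 2 lower in young, 1 and 3 in aged and 0 and 0 in NudC-. They were 0 and 1 in NudC+, and 1 and 4 over the 4 spike-in mixtures. This fit left input and enrichment libraries unpaired. Pairing them by number within each age raised the lower calls to 3 in young and 4 in aged. In the 2 other experiments the replicate number entered as a block shared by the arms or by the mixtures. This block raised the lower calls in NudC- to 3, and all other counts were unchanged. Whether same-numbered NudC libraries belong together could not be shown. For NudC- in the unpaired fit, 2 genes had an unadjusted p under 0.05 in edgeR and 1 in DESeq2, which also called 0.

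The shares of all genes called lower were 27.2%, 27.7%, 6.79%, 6.8% and 34.7%, and those called higher 27%, 26.5%, 10.1%, 8.54% and 31.7%, in that order. At least 2-fold lower in the unpaired fit were Clock and Cry1 in young, aged and spike-in livers, none in NudC- and Clock in NudC+. The shares of all genes were 14.2%, 14.3%, 13.4%, 5.66% and 6.01%, in that order. The median log2 ratio of the 6 genes was -0.74, -0.64, -0.72, -0.91 and -0.78, against 0.00, -0.01, -0.11, -0.05 and -0.05 over all genes tested. Without Npas2, which has few counts in young and 12-month livers, it was -0.28, -0.34, -0.75, -0.37 and -0.62. Scaled by library totals, without TMM, the median over all genes moved to between -0.82 and -0.38, so changes are relative to that scaling.

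Of the other clock genes, 5 were called higher and 7 lower in young enrichment, and 4 higher and 7 lower in aged enrichment, of 21 tested. In NudC- it was 0 and 6, in NudC+ 1 and 5 of 21, and over the mixtures 3 and 11 of 20 tested. Of the genes of NAD synthesis and use it was 10 higher and 1 lower of 15 in young and in aged, 1 and 1 in each NudC arm and 10 and 2 over the mixtures. The 4 genes of cap removal held 1 higher and 1 lower in young, aged and the mixtures, 0 and 1 in NudC- and 0 and 0 in NudC+.

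In the unpaired fit, Clock was the sole gene of the 6 called lower in 4 of the 5 comparisons. It fell from 15.8, 12.5, 12.7 and 16.4 cpm in young input to 8.04, 6.90, 6.01 and 4.15 cpm in the matching enrichment libraries. In aged livers it fell from 26.1, 25.3, 25.9 and 27.1 cpm to 8.08, 6.93, 10.5 and 6.06 cpm. Enrichment lay below input in 8 of 8 pairs, and the log2 ratio was -1.20 ± 0.18 (SE, adjusted p = 7.9e-06) in young and -1.72 ± 0.17 (adjusted p = 1.9e-08) in aged livers.

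In the spike-in experiment Clock was lower in enrichment in 12 of 12 pairs, at a log2 ratio of -1.22 ± 0.22 (adjusted p = 3.5e-05). The pairs ranged from -3.18 to -0.24, the widest spread of the 6 genes. In the NudC+ arm it fell from 20.7 and 18.3 cpm to 6.64 and 6.19 cpm, a log2 ratio of -1.60 ± 0.31 (adjusted p = 0.013), which became adjusted p = 0.19 without either replicate of that arm. In the NudC- arm the ratio was -1.06 ± 0.31 (adjusted p = 0.052), from 14.0 and 13.5 cpm to 4.70 and 8.44 cpm. With the replicate number as a block shared by both arms, edgeR called Clock lower there too (adjusted p = 6.1e-04). Clock has the longest merged exons of the 6.

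Arntl was called in none of the 5 comparisons with TMM, though scaled by library totals it was called lower over the mixtures, at -0.51 (adjusted p = 1.6e-04). Aged enrichment held 18.4, 22.8, 19.99 and 23.7 cpm beside 23.7, 20.5, 18.3 and 20.1 cpm in input, so that the 2 kinds of library overlapped. The log2 ratio was 0.04 ± 0.15 (adjusted p = 0.86) in aged livers and -0.06 ± 0.09 (adjusted p = 0.60) over the spike-in mixtures, where 6 of 12 pairs lay on each side. The ratio of aged counts was 1.01, with a counting interval of 0.929 to 1.10. In young and 12-month livers the 3 to 18 counts per library bounded the ratio loosely, at 0.927 (0.540 to 1.58) in young, 0.967 (0.501 to 1.82) in NudC- and 0.355 (0.130 to 0.835) in NudC+. The last of these was not called by edgeR (adjusted p = 0.24).

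Npas2 was lower in enrichment where it could be measured. In aged livers it went from 10.0, 10.5, 12.6 and 16.4 cpm in input to 5.72, 4.38, 8.05 and 7.71 cpm in enrichment, lower in 4 of 4 pairs (log2 ratio -0.93 ± 0.25, adjusted p = 0.0029). Over the mixtures the log2 ratio was -0.94 ± 0.22 (adjusted p = 6.7e-04), lower in 12 of 12 pairs. Young libraries held 7 counts in input and 2 in enrichment, which gave a ratio of 0.312 with an interval of 0.0316 to 1.64, and no change was detectable at that depth. In the NudC experiment 7 input counts per arm stood beside 3 and 1 enrichment counts, likewise too few.

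Of the cryptochromes, the unpaired fit called Cry1 lower in 3 of the 5 comparisons and Cry2 in 1. Cry1 stood at 3.75, 3.09, 2.25 and 1.57 cpm in young and 7.01, 5.84, 7.80 and 9.18 cpm in aged enrichment, below its input in 8 of 8 pairs. The log2 ratio was -1.27 ± 0.22 (adjusted p = 4.0e-05) in young, -1.22 ± 0.18 (adjusted p = 5.4e-06) in aged and -1.04 ± 0.13 (adjusted p = 5.4e-07) over the mixtures, lower in 12 of 12 pairs. In the NudC experiment the unpaired fit did not call it, at -1.41 ± 0.64 (adjusted p = 0.17) without and -0.37 ± 0.61 (adjusted p = 0.74) with the enzyme. With the replicate number as a block shared by both arms, edgeR called Cry1 lower without the enzyme (adjusted p = 0.011).

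Cry2 stood at 31.9, 30.7, 22.8 and 24.6 cpm in young and 15.4, 17.8, 16.5 and 16.5 cpm in aged enrichment. Each library lay below its own input, though the 2 kinds of library overlapped as groups. The log2 ratios of -0.28 ± 0.16 (adjusted p = 0.16) and -0.34 ± 0.16 (adjusted p = 0.088) were not called. With the replicate number as a block, which the pairing of these libraries warrants, both were called (adjusted p = 0.029 and 0.0060). The aged value was also called without the filter on low counts (adjusted p = 0.027) and with only the groups compared in the fit (adjusted p = 0.017). Over the mixtures Cry2 was called lower, at -0.62 ± 0.10 (adjusted p = 1.2e-05) in 12 of 12 pairs. In the NudC experiment it was not called, at -0.34 and 0.01.

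Nfil3 was the sole gene of the 6 that was called higher. In aged livers it stood at 50.7, 49.4, 59.97 and 60.8 cpm in enrichment beside 42.1, 38.6, 46.3 and 44.9 cpm in input, and the 2 kinds of library did not overlap. The log2 ratio was 0.36 ± 0.11 (adjusted p = 0.010), which is 1.29-fold and well under the 2-fold of an NAD-RNA, and it became adjusted p = 0.051 without aged replicate 4. Over the mixtures the log2 ratio was 0.37 ± 0.09 (adjusted p = 9.2e-04), higher in 12 of 12 pairs, which ranged from 0.00 to 0.68. Scaled by library totals these values turned to -0.02 and -0.09. In young livers the ratio was -0.03 ± 0.13 (adjusted p = 0.86), with 2 of 4 pairs on each side. In the NudC- arm Nfil3 went the other way, at -0.75 ± 0.31, lower in 2 of 2 pairs. The unpaired edgeR fit did not call this fall (adjusted p = 0.14). The fit blocked by replicate number across both arms called Nfil3 lower there (adjusted p = 0.0072). In the NudC+ arm the ratio was -0.01 ± 0.31 (adjusted p = 0.99), with 1 of 2 pairs on each side.

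**Figure D3:**
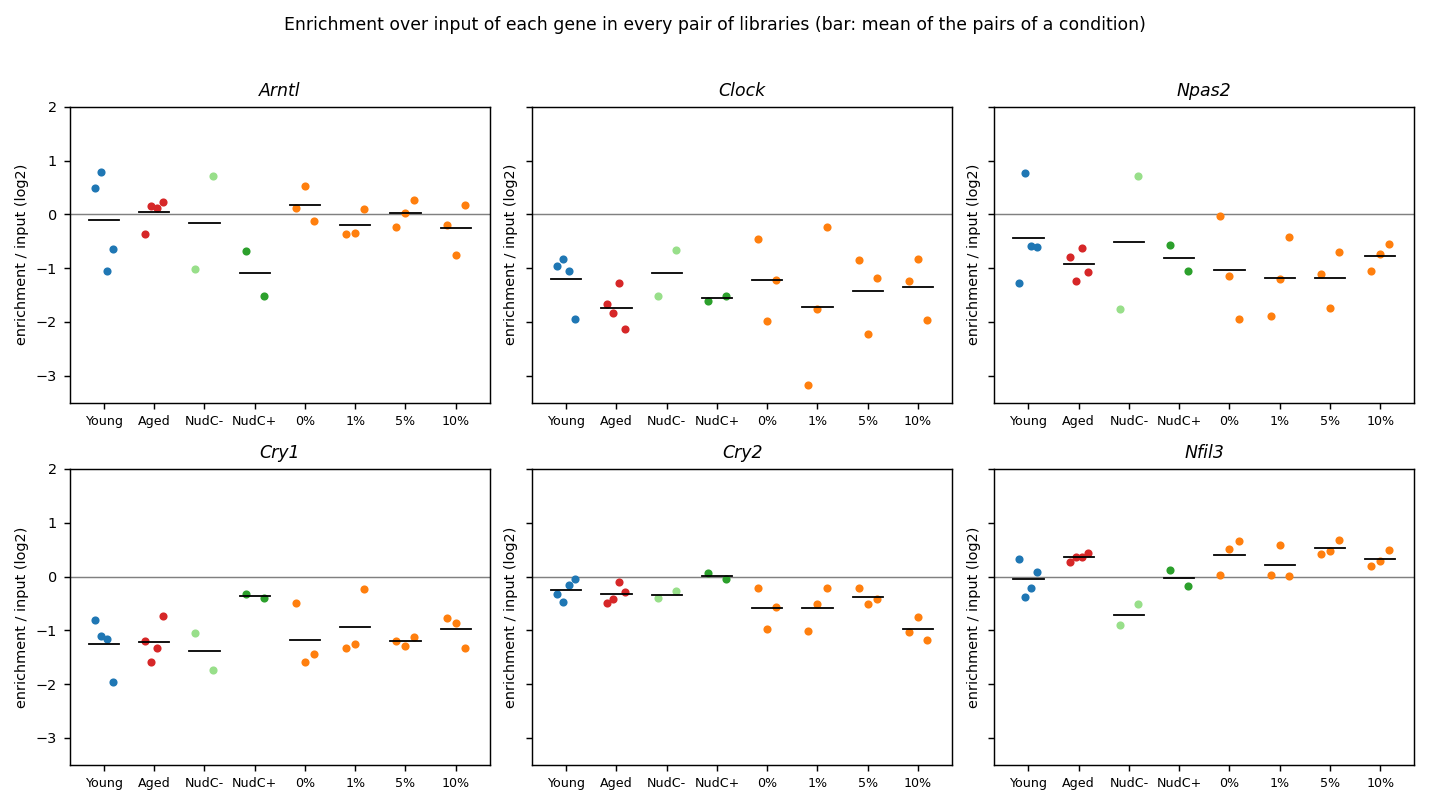
Log2 ratio of enrichment to input for each gene, 1 point per pair of libraries with the same number, by condition, with bars at the mean of the pairs. All Clock pairs lay below 0, Nfil3 pairs lay at or above 0 in aged livers and the mixtures, and Arntl pairs were spread around 0 except in the NudC+ arm.

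Between the ages, the enrichment libraries carried the same order as the inputs for 5 of the genes. Aged enrichment libraries were above all young ones for Arntl, Cry1 and Nfil3, at 29.3, 2.87 and 4.78 times the young level, and below all of them for Cry2. The aged libraries of Npas2 were above the young ones too, by a factor whose counting interval of 34.5 to 1043 reflects the 2 young counts in all. Clock overlapped between the ages in enrichment, at 1.29 times the young level, against 1.82 in input. The log2 ratio of enrichment to input overlapped between the ages for all 6 genes. For Arntl and Npas2 the young ratios rest on few counts, so their overlap tells little. For Clock the means of the pair ratios differed by 0.53, young minus aged, beside SDs of 0.50 and 0.36. For Nfil3 they differed by -0.41, beside SDs of 0.31 and 0.07. Its highest young pair, at 0.32, lay just above its lowest aged pair, at 0.27. Non-overlap in enrichment was seen in 23.7% of all genes.

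The NudC experiment asks whether release by the enzyme changes what is recovered, and the difference in enrichment between its arms was tested as an interaction. edgeR called 0 of the 6 genes, and 0 of them had an unadjusted p under 0.05 there or in DESeq2. Of all 17325 genes 0% were called, with 279 at an unadjusted p under 0.05 in edgeR and 128 in DESeq2, which also called 0. For Clock the difference in log2 ratio, NudC+ minus NudC-, was -0.54 with a 95% interval of -1.54 to 0.47. Nfil3 differed by 0.74 (-0.26 to 1.74), Cry1 by 1.03 (-0.98 to 3.05), Cry2 by 0.34 (-0.36 to 1.05) and Arntl by -1.38 (-3.66 to 0.90). The interval of Npas2, -6.36 to 3.55, reflects its few counts. With the 2 libraries a group used here, differences anywhere within these intervals are not excluded.

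Across the 12 spike-in pairs the smallest falls of Clock, Npas2 and Cry1, and the largest of Clock, stood beside those of mitochondrial RNA. The 2 pairs with the smallest fall of mitochondrial RNA, replicate 3 of the 1% and replicate 1 of the 0% mixture, had the smallest falls of Clock, at -0.24 and -0.45. The pair with the largest fall of mitochondrial RNA, replicate 1 of the 1% mixture at -2.59, had the largest fall of Clock, at -3.18. That value rests on 6 counts of Clock in the shallowest library of the experiment. The same 2 pairs had the smallest falls of Cry1, at -0.23 and -0.50, and of Npas2, at -0.43 and -0.03. Cry2 stood at -0.21 and -0.22 in them, and also at -0.22 in replicate 1 of the 5% mixture. Nfil3 stood at 0.00 and 0.03 in the same 2 pairs, but also at 0.03 in the pair with the largest fall. Arntl did not follow, at 0.10 and 0.12 in those pairs and -0.37 in the pair with the largest fall. The part of the uneven fall of mitochondrial RNA in these ratios was not tested. Without those 2 pairs the counts were still 1 higher and 4 lower, with log2 ratios of -1.58 for Clock, -1.23 for Npas2, -1.25 for Cry1, -0.69 for Cry2 and 0.47 for Nfil3. In the age experiment the smallest falls coincided in young replicate 2, at -2.46 for mitochondrial RNA and -0.84 for Clock. The largest falls did not coincide. Young replicate 3 had the largest fall of mitochondrial RNA, at -3.24, with Clock at -1.06. Aged replicate 4 had the largest fall of Clock, at -2.13, with mitochondrial RNA at -3.02.

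**Figure D4:**
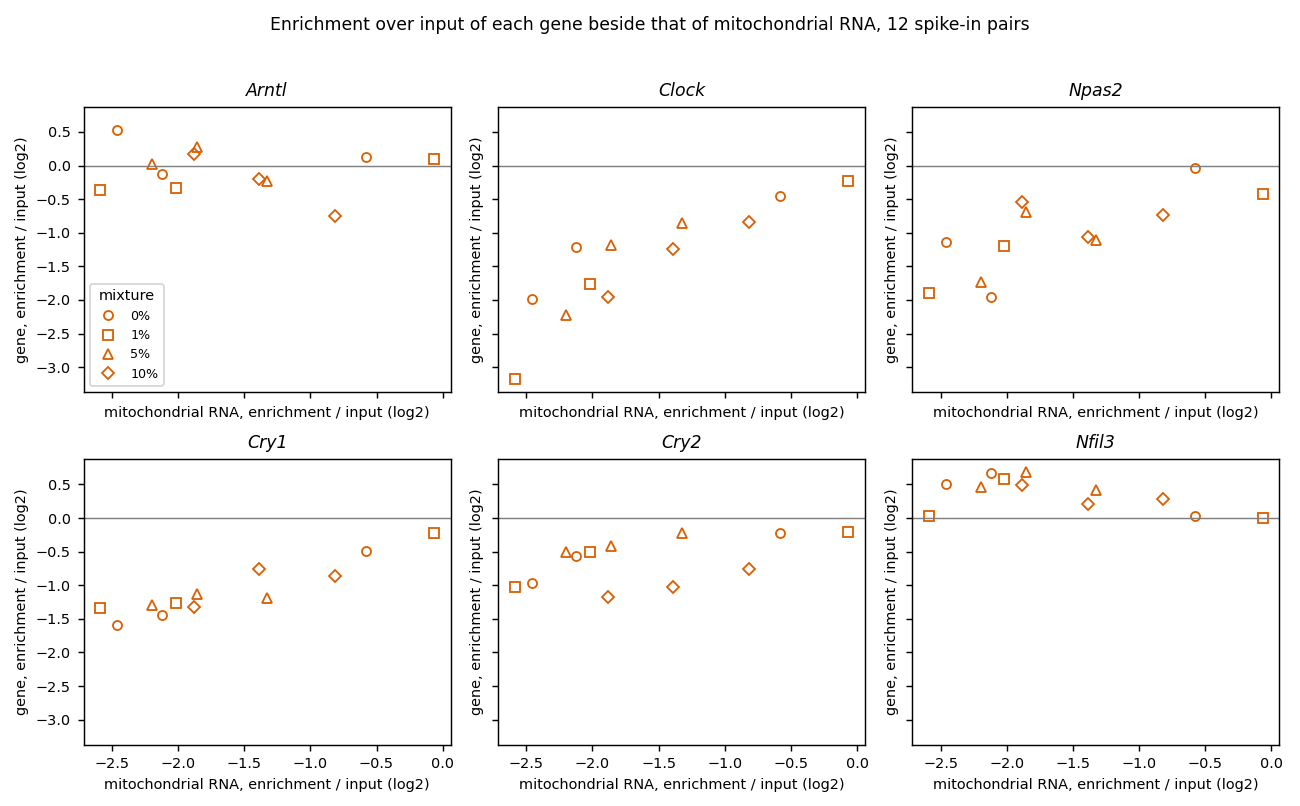
Log2 ratio of enrichment to input of each gene (vertical) beside that of RNA of the mitochondrial genome (horizontal) in the 12 spike-in pairs, with a symbol per mixture. Clock ran from -0.24 in the pair with the smallest fall of mitochondrial RNA to -3.18 in the pair with the largest, whereas Arntl stayed between -0.76 and 0.53.

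By mixture, the mean log2 ratio of Clock was -1.22 at 0%, -1.73 at 1%, -1.42 at 5% and -1.35 at 10%, with SDs of 0.57 to 1.47 over 3 pairs. That of Nfil3 was 0.40, 0.21, 0.52 and 0.33, with SDs of 0.14 to 0.33. That of Cry2 was -0.59, -0.58, -0.38 and -0.98, and its 10% pairs, from -1.17 to -0.76, did not overlap with its 5% pairs, from -0.51 to -0.22, a difference that was not tested. For the other genes each mixture overlapped in range with its neighbours.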

How the data were processed

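Poly(A)-selected RNA of mouse liver was sequenced as input and enrichment libraries. The authors aligned reads to GRCm38 with STAR and counted them per gene with featureCounts. The deposited values are raw counts, without normalization, and the submitters' processing notes also name DESeq2. 4 further count columns of the NudC table, numbered replicate 3, match no sample and were not used here. Gene symbols, positions and exon lengths came from GENCODE M21, which held 55154 of 55335 identifiers of the age and NudC tables.

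As in the study, a gene was dropped from a table if over 25% of its libraries had no count for it. The main test was edgeR 4.0.16 (quasi-likelihood, TMM, two-sided, Benjamini-Hochberg over all genes tested, adjusted p under 0.05), in R 4.3.3, with all libraries of a table in 1 fit. The fit was tested on simulated data. Alternatives were DESeq2 1.42.0, its size factors, library size alone, no filter, fits of only the groups compared, the replicate number as a block, and leaving out replicates. The block was set within each age in the age experiment and was shared by all arms or mixtures in the others. Pair ratios are differences of log2 cpm with a prior count of 2. The study names biological replicates of livers for the spike-in experiment, and nothing in the labels says which libraries share an animal, so p-values may measure technical spread in part.

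The members and gene lists were chosen with earlier results of these data known. Named were all members, the 4 other clock genes and the 3 genes of each NAD list with the largest difference between young and aged input, and the 5 genes nearest to Arntl and to its flipped profile. Some of these genes are not reported here. Nr1d1, Nr1d2 and Timeless were added after their values were seen.

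Input and enrichment libraries of the same number in the age experiment deviated together from their group means (correlations of 0.135 to 0.261 in 8 pairs, against -0.156 to 0.001 for other pairings), so the numbers pair these libraries.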

Additional observations from a re-analysis of the deposited data

Results flagged for a closer look

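Of 36 groups of 4 libraries examined, 1 held a library that stood apart from the other 3 by more of the group's range than Dixon's 95% limit allows: Cry1 in young input replicate 3, at 5.22 cpm beside 6.63 to 6.87 cpm. Chance alone gives about 1 in 20 such groups. Without that library, Cry1 remained lower in young than in aged input with no overlap.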

How the results depend on the processing

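Young against aged input, given with no test, did not change direction for any of the 6 genes under the settings run. With library size alone, Cry2 overlapped between the ages and the other 5 genes did not. Library size alone shifted all genes, and with it 4 members were called lower in young enrichment (2 with TMM), 4 in NudC- (0 with TMM), and 0 were called higher in aged and over the mixtures (1 each with TMM). It turned Arntl in aged livers to -0.348, Nfil3 to -0.023 in aged livers and -0.088 over the mixtures, and Cry2 in NudC+ to -0.55. Lower calls rose from 3 to 4 in aged livers and from 4 to 5 over the mixtures, where Arntl was called at -0.51 (adjusted p = 1.6e-04). The share of higher among called genes moved from 49.78% to 28.45% in young, 48.86% to 26.96% in aged, 59.88% to 17.38% in NudC-, 55.66% to 18.81% in NudC+ and 47.73% to 23.26% over the mixtures. Without the filter, 1 member was called lower in NudC- and 4 in aged livers (Cry2 added, as with only the groups compared), and Cry2 in NudC+ was -0.008. It was -0.005 with only the groups compared. DESeq2 and its size factors turned Arntl in NudC- to 0.043 and Nfil3 in NudC+ to 0.062. The causes of these shifts were not tested.

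Leaving out replicates gave 0 to 1 members higher in aged livers (0 without replicate 4) and 0 members lower in NudC+ without either replicate, a fit in which the lone library is assumed to vary like the other groups. Uncalled log2 ratios that changed sign ranged from -0.41 to 0.25 for Arntl and -0.16 to 0.07 for Nfil3 in young, -0.031 to 0.172 for Arntl in aged, and -1.22 to 0.78 for Arntl in NudC-. The ranges in NudC+ were -0.18 to 0.18 for Nfil3 and -0.036 to 0.121 for Cry2. Npas2 in NudC- was 1.20 without replicate 1.

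With the replicate number as a block shared by both arms, 3 members (Clock, Nfil3 and Cry1) were called lower in NudC-, against 0. There the 2 pairs of an arm correlate by construction (0.496 to 0.542), so the correlation cannot show whether same-numbered libraries belong together. The protocol of the study keeps input from the same labelled RNA. In the spike-in experiment the correlations of numbered pairs were 0.05 to 0.235, and the block changed no call. Beside Cry2 in the age experiment it changed no other call. A fit of only the groups compared does not differ from the main one for the spike-in contrast and was not run for the NudC interaction. Leaving out the 1% mixture or the 2 pairs with the smallest fall of mitochondrial RNA, both chosen after seeing the data, changed no call. Depth limits Npas2 and Arntl most, with 0 to 18 counts per library in young and 12-month livers.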
